A study of Mus musculus with 12 samples.

Results

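Vessel growth towards a tumour is directed by secreted factors and by the receptors that bind them. The 10 mouse genes described here were chosen by symbol: the VEGF-family ligands Vegfa, Vegfb, Vegfc and Pgf, the receptor Flt1, the co-receptors Nrp1 and Nrp2, and the secreted factors Adm, Angptl4 and Angpt2. They are 10 of the 54232 genes counted in 12 RNA-seq libraries, and all 10 were abundant enough in at least 1 group to be tested. The libraries came from MMTV-NIC cells, a mouse mammary tumour line in which the MMTV promoter, active in mammary epithelium, drives an activated Neu (ErbB2) receptor together with Cre recombinase. All 4 groups carry that transgene. AXL WT and AXL KO cells, with and without the receptor tyrosine kinase AXL, were each kept in 21% oxygen (normoxia) or 1% oxygen (hypoxia), with 3 libraries per group. The sources used here give neither the time in hypoxia nor how many knockout clones there were, and the question the design states is how AXL WT and AXL KO cells differ in hypoxia.

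VEGF-A binds the receptors VEGFR1 (Flt1) and VEGFR2 (Kdr), and VEGFR2 carries most of its signal in endothelial cells. VEGF-B and placental growth factor (Pgf) bind VEGFR1 alone, VEGF-C binds VEGFR3 and acts mainly on lymphatic vessels, and the neuropilins hold VEGF or semaphorins for their signalling partners. When oxygen is low, hypoxia-inducible factors (HIF) bind DNA and raise transcription of genes such as Vegfa and Adm. In a tumour, carcinoma cells are a main source of VEGF-A, while Flt1, Kdr and Angpt2 are best known from endothelial cells.

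Axl itself had 51682, 47960 and 57291 counts in normoxic and 23077, 19395 and 28495 counts in hypoxic AXL WT libraries. AXL KO libraries had 164, 189 and 200 Axl counts in normoxia and 86, 105 and 78 in hypoxia, so the counts follow the sample titles. A separate genotype tag follows the oxygen level instead and contradicts the title in 6 samples, and it was not used. A library held 45297267 to 58775422 counts in genes. The 3 AXL WT hypoxia libraries stood apart from each other: the biological coefficient of variation was 0.402 within that group, against 0.0565 within AXL WT normoxia, 0.0895 within AXL KO normoxia and 0.0739 within AXL KO hypoxia. The 14 mammary epithelial markers summed to 3892 to 4001 CPM (counts scaled to a common library size) in AXL WT normoxia. AXL WT hypoxia ran from 1225 to 5107 CPM. AXL KO libraries summed to 2339 to 2651 CPM in normoxia and 2530 to 2622 CPM in hypoxia. Of 12 tested, 2 were higher and 5 lower in AXL KO cells at each oxygen level (edgeR adjusted p under 0.05). Of all genes, 29.7% were higher and 30.0% lower in normoxia, and 29.9% and 33.0% in hypoxia. With hypoxia 4 rose and 4 fell in AXL WT cells, against 29.2% and 30.7% of all genes. Erbb2 was at 1226 ± 113 CPM (SD) in AXL WT normoxia and 966 ± 1253 CPM in AXL WT hypoxia. The summed level of 9 leukocyte markers ran from 15.4 to 153 CPM in AXL WT hypoxia, with Csf1r at 63.9 ± 72.7 CPM (SD, n = 3), and from 11.2 to 85.3 CPM elsewhere, mostly from Cd68, while Tyrobp and Ptprc were at or near 0 throughout. Markers of fibroblasts (8 genes) summed to 203 to 224 CPM in AXL KO normoxia and to 66.6 to 96.4 CPM in the other groups. Of 6 fibroblast markers tested, 4 were higher and 0 lower in AXL KO cells in normoxia, against 29.7% and 30.0% of all genes. In hypoxia 3 were higher and 3 lower, against 29.9% and 33.0%. There Col1a2 was at 18.3 CPM in AXL KO against 0.0935 CPM in AXL WT cells, and Pdgfra at 9.38 against 56.4 CPM. Markers of pericytes and smooth muscle (7 genes) summed to 0.646 to 12.1 CPM over all libraries. The part of these shifts in the results below was not tested. In bulk RNA, fewer cells of a type and less RNA per cell cannot be told apart.

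With all 12 libraries, every member differed with hypoxia in AXL WT cells, in a pattern that divided the family: Vegfa, Vegfc, Pgf, Flt1, Nrp1 and Adm rose, and Vegfb, Nrp2, Angptl4 and Angpt2 fell. Called here means an adjusted p (Benjamini-Hochberg, edgeR's quasi-likelihood test) under 0.05. By that rule all 10 members were called in this comparison (6 higher, 4 lower), against 59.8% of the 16767 genes tested (29.2% higher, 30.7% lower). The groups did not overlap for 9 of 10 members (all but Nrp1), against 61.4% of all genes, and the members' median log2 fold change was 1.01, with -0.023 over all genes tested. With replicate 1 as the only AXL WT hypoxia library, Nrp1 was at -0.11. The Angpt2 call was lost in 9 of 21 alternative fits, with -0.72 without that replicate. Calls of Nrp2 and Angptl4 were each lost in 1 alternative fit. In AXL KO cells 4 members rose in hypoxia (Vegfa, Vegfc, Pgf, Adm), 4 fell (Vegfb, Nrp1, Angptl4, Angpt2) and 2 were not called, against 58.0% of all genes called (27.3% higher, 30.6% lower). Again 9 members had groups that did not overlap, against 76.0% of all genes, and the medians were -0.18 for the members and -0.026 for all genes.

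Between the genotypes, AXL KO cells in hypoxia had more Vegfa, Vegfb, Vegfc, Flt1, Nrp1 and Adm RNA and less Pgf and Angpt2 RNA than AXL WT cells. That is 8 of 10 members called (6 higher, 2 lower), against 63.0% of all genes tested (29.9% higher, 33.0% lower), and 9 members with groups that did not overlap, against 62.6%. The members' median log2 fold change was 0.67, and that of all genes tested was -0.041. In normoxia Vegfa, Vegfc, Flt1 and Nrp1 were higher and Angpt2 lower in AXL KO cells, 5 of 10 members called (4 higher, 1 lower) against 59.7% of all genes (29.7% higher, 30.0% lower). Here 8 members had groups that did not overlap, against 79.7% of all genes, and the medians were 0.29 for the members and -0.03 for all genes. The response to hypoxia differed between the genotypes for 2 of 10 members, Flt1 and Nrp1, both lower, against 28.8% of all genes called in the interaction (13.5% higher, 15.3% lower). Without AXL WT hypoxia replicate 1 the interaction was called for 6 members (Vegfa, Vegfb, Flt1, Nrp1, Nrp2 and Adm). With it as the only AXL WT hypoxia library, the interactions of Vegfc, Pgf, Flt1 and Nrp1 were -0.52, -1.91, -1.36 and -0.87. That fit assumes that the library left varies like the other groups. The 2 comparisons of genotypes each share libraries with both comparisons of oxygen levels, so their fold changes are not independent of each other. Nothing states that the 3 libraries of a group are separate cultures, so a p-value reflects no more than how far these samples spread, and that spread may be technical. The fit shares a gene's spread over all 12 libraries, so AXL WT hypoxia also weighs on errors of comparisons without it. Without AXL WT hypoxia replicate 1, the SE of the normoxic Adm difference (0.68 in both fits) went from 0.31 to 0.16. For Nrp1 in AXL KO hypoxia (-0.98 in both) it went from 0.32 to 0.11, and for Angptl4 there from 0.37 to 0.38. Comparisons with AXL WT hypoxia in turn borrow spread from the tighter groups.

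**Figure D1:**
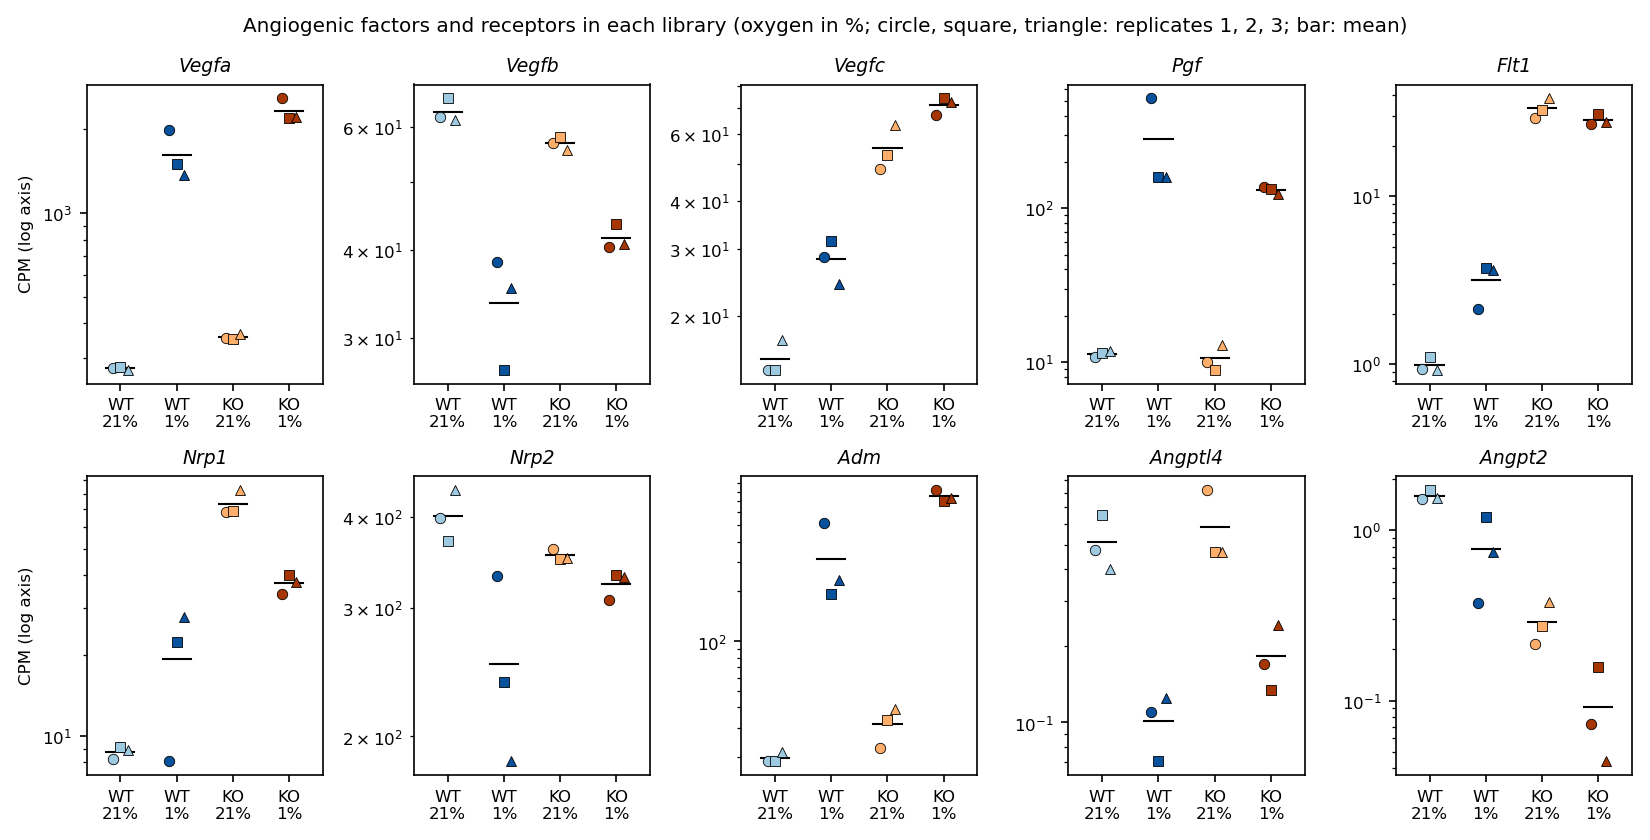
Level of each of the 10 genes in each of the 12 libraries, in CPM on a log axis, by genotype (WT or KO of AXL) and oxygen (21% or 1%), with replicates 1, 2 and 3 as circle, square and triangle and the group mean as a bar. Vegfa, Pgf and Adm sit higher in 1% oxygen in both genotypes, Flt1 lies above 25 CPM in all 6 AXL KO libraries and below 4 CPM in all 6 AXL WT libraries, and AXL WT hypoxia replicate 1 stands apart from replicates 2 and 3 for Pgf, Adm and Nrp1.

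Vegfa, the main inducer of vessel sprouting, was the most abundant member per kilobase in all 12 libraries. It was at 276, 279 and 272 CPM in AXL WT normoxia and at 1986, 1504 and 1363 CPM in AXL WT hypoxia. AXL KO libraries held 354, 351 and 365 CPM in normoxia and 2588, 2187 and 2204 CPM in hypoxia. Every hypoxic library was above every normoxic one, and in each oxygen level all AXL KO libraries were above all AXL WT libraries. Hypoxia raised Vegfa by a log2 fold change of 2.55 ± 0.13 (SE) in AXL WT cells and 2.71 ± 0.13 in AXL KO cells (edgeR adjusted p = 7.53e-08 and 7.68e-08). The genotype difference was smaller than the oxygen difference, at 0.37 ± 0.13 in normoxia (edgeR adjusted p = 0.0237) and 0.52 ± 0.13 in hypoxia (edgeR adjusted p = 0.00345). The responses of Vegfa to hypoxia differed between the genotypes by 0.15 ± 0.18, which was not called (edgeR adjusted p = 0.566), but without AXL WT hypoxia replicate 1 that interaction of Vegfa was 0.33 and called (edgeR adjusted p = 0.035). Measured against AXL WT hypoxia replicate 1 alone, the hypoxic genotype difference of Vegfa was 0.22 (edgeR adjusted p = 0.0635), and against replicates 2 and 3 it was 0.71 (edgeR adjusted p = 1.24e-05). Among the 6 compared libraries alone it was 0.48 and not called, and adjusted p of this Vegfa difference ran from 1.24e-05 to 0.0635 over 22 alternatives. In normoxia the Vegfa call was lost when libraries were scaled by size alone (0.12, edgeR adjusted p = 0.4) and without AXL KO normoxia replicate 3 (0.36, edgeR adjusted p = 0.066), and adjusted p over all 22 alternatives ran from 7.12e-05 to 0.4.

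The 250 bases before the annotated start of Vegfa are shown because this gene had the highest level of the family while that stretch holds no copy of the HIF core motif (ACGTG or GCGTG, on either strand). The stretch lies on the minus strand at chr17:46032378-46032627, from RefSeq, assembly GRCm38.p6.

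Vegfa: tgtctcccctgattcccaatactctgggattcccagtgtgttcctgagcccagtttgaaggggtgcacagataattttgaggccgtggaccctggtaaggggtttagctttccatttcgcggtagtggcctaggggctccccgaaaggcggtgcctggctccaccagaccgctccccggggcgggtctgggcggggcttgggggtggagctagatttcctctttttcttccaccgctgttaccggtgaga

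A second RefSeq start of Vegfa, inside the gene, has 2 copies of the core, 218 and 211 bases before it. A match is a description of the letters only and not evidence of a bound site, and its absence says only that these letters are not in the window.

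Vegfb, a VEGFR1 ligand, moved against Vegfa. It was at 61.9, 66.0 and 61.3 CPM in AXL WT normoxia and at 38.5, 27.0 and 35.3 CPM in AXL WT hypoxia, a fall of all 3 hypoxic libraries below all normoxic ones. AXL KO libraries were at 56.9, 58.1 and 55.7 CPM in normoxia and at 40.5, 43.6 and 40.8 CPM in hypoxia, again without overlap. The log2 fold change in hypoxia was -0.91 ± 0.12 in AXL WT cells (edgeR adjusted p = 5.88e-05) and -0.45 ± 0.12 in AXL KO cells (edgeR adjusted p = 0.00701), and their difference of 0.46 ± 0.17 was not called (edgeR adjusted p = 0.0636). The interaction of Vegfb was called in 4 of 21 alternatives, among them 0.57 without AXL WT hypoxia replicate 1 (edgeR adjusted p = 0.00527) and 0.32 without replicate 2 (edgeR adjusted p = 0.0483), and its adjusted p reached 0.219. The genotype difference of Vegfb in hypoxia, 0.31 ± 0.12 (edgeR adjusted p = 0.0414), lay close to the threshold and was lost in 18 of 22 alternatives, with values from 0.11 to 0.43 and adjusted p from 0.00315 to 0.405. In normoxia Vegfb differed by -0.15 ± 0.12 (edgeR adjusted p = 0.304), with a call in 4 of 22 alternatives, the furthest being -0.40 with library size alone.

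Vegfc, the lymphatic vessel growth factor, was set apart by genotype more than by oxygen. AXL WT libraries held 14.4, 14.5 and 17.3 CPM in normoxia and 28.6, 31.5 and 24.3 CPM in hypoxia. AXL KO libraries held 48.6, 52.9 and 63.4 CPM in normoxia and 67.3, 74.4 and 72.5 CPM in hypoxia. All 6 AXL KO libraries, hypoxic or not, were above all 6 AXL WT libraries. Vegfc was higher in AXL KO cells by 1.83 ± 0.14 on the log2 scale in normoxia (edgeR adjusted p = 3.88e-07) and by 1.35 ± 0.14 in hypoxia (edgeR adjusted p = 5.51e-06), and those calls held in all 22 alternatives. Hypoxia raised Vegfc by 0.87 ± 0.14 in AXL WT cells (edgeR adjusted p = 0.00019). In AXL KO cells the rise was 0.38 ± 0.13 (edgeR adjusted p = 0.0285), a call of Vegfc lost in 9 of 22 alternatives, 7 of which left out 1 library (any AXL WT normoxia library, AXL KO normoxia replicate 1 or 2, or AXL KO hypoxia replicate 2 or 3), with values of 0.17 to 0.50 and adjusted p from 0.00103 to 0.228. The difference between the responses was -0.49 ± 0.19 and was not called (edgeR adjusted p = 0.0723). That interaction of Vegfc was called in 5 of 21 alternatives, among them those without AXL WT normoxia replicate 3 (-0.66) or AXL WT hypoxia replicate 3 (-0.59), with adjusted p of up to 0.183.

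Pgf, placental growth factor, rose with hypoxia in both genotypes. It was at 10.7, 11.5 and 11.7 CPM in AXL WT normoxia and at 521, 161 and 161 CPM in AXL WT hypoxia, where replicate 1 was far above the other two. With AXL absent, Pgf was at 10.1, 8.88 and 12.8 CPM in normoxia and at 137, 133 and 123 CPM in hypoxia. The oxygen levels did not overlap in either genotype, and hypoxia raised Pgf by 4.63 ± 0.43 on the log2 scale in AXL WT cells (edgeR adjusted p = 3.51e-06) and by 3.63 ± 0.41 in AXL KO cells (edgeR adjusted p = 1.89e-05). The difference between these responses, -1.01 ± 0.52, was not called (edgeR adjusted p = 0.173). It was -0.19 without AXL WT hypoxia replicate 1 and -1.91 when replicate 1 was the only AXL WT hypoxia library. In hypoxia Pgf was lower in AXL KO cells by a log2 fold change of -1.10 ± 0.37 (edgeR adjusted p = 0.0208), and the normoxic difference was -0.094 ± 0.37 (edgeR adjusted p = 0.844). The size of the hypoxic Pgf difference depended on 1 library: it was -0.28 without AXL WT hypoxia replicate 1 (edgeR adjusted p = 0.0498) and -2.0 with replicate 1 as the only AXL WT hypoxia library. The Pgf call was lost without AXL KO hypoxia replicate 1, 2 or 3 in turn (-1.13, -1.10 and -1.05), without the low-count filter, with limma-voom and among the 6 compared libraries. Adjusted p over all 22 alternatives reached 0.0962. The one HIF core in the window of the outer Pgf start lies 124 bases before it and is shown in capitals, read as CACGC on the coding strand, in a 29-base stretch that is also exon of a longer Pgf transcript (minus strand, chr12:85177421-85177449, RefSeq, GRCm38.p6).

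Pgf: gccctgcggggtCACGCgcactcaggtct

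Together the 4 ligands changed in proportion as well as in amount. Counts divided by gene length show that Vegfa made up 56.5% ± 0.597 (SD, n = 3) of the RNA of these 4 ligands in AXL WT normoxia and 57.5% ± 0.862 in AXL KO normoxia. In hypoxia its share was 75.8% ± 6.54 in AXL WT and 84.3% ± 1.33 in AXL KO cells. Vegfb was the second ligand in normoxia, with 34.5% ± 0.812 in AXL WT and 24.5% ± 1.23 in AXL KO cells, and it held 4.27% ± 1.01 and 4.05% ± 0.432 in hypoxia. The share of Vegfc was 5.53% ± 0.645 in AXL WT normoxia and 15.5% ± 1.63 in AXL KO normoxia. The hypoxic shares of Vegfc were 2.37% ± 0.62 and 4.57% ± 0.576, lower in each genotype although its CPM was higher. Pgf was the second ligand in hypoxia, with 17.6% ± 7.68 in AXL WT (26.4% in replicate 1, and as low as 12.7% in the others) and 7.03% ± 0.372 in AXL KO cells, against 3.42% ± 0.151 and 2.51% ± 0.404 in normoxia. These shares need no scaling between libraries and are given as a description, with no test.

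**Figure D2:**
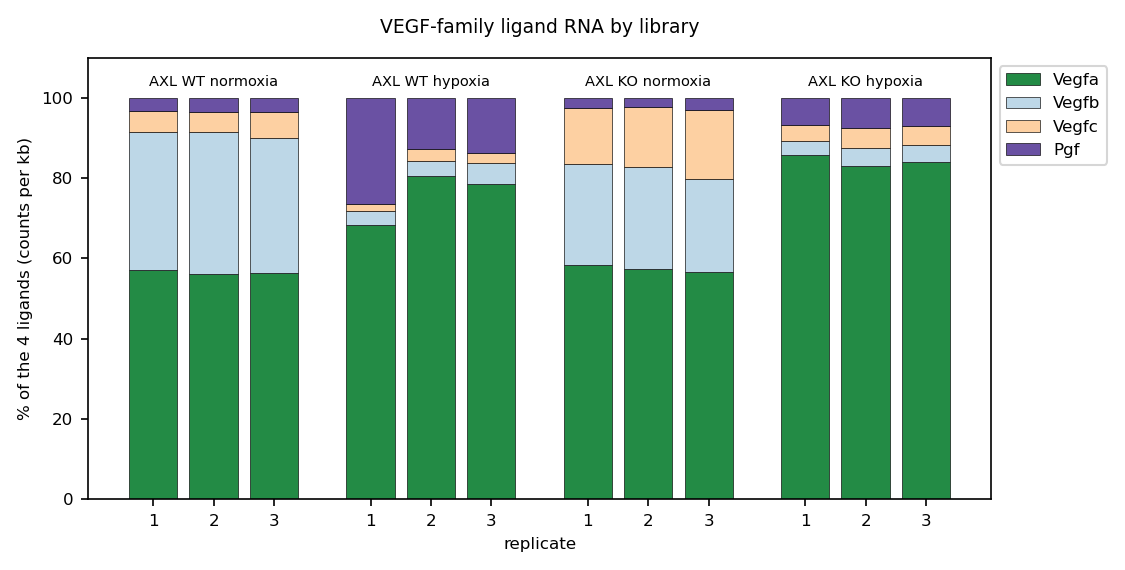
Share of each of 4 VEGF-family ligands (Vegfa, Vegfb, Vegfc, Pgf) in their summed RNA in each library, as a percent of counts per kilobase, with 3 bars per group for replicates 1 to 3. Vegfd is not included. Vegfb takes 34.5% in AXL WT normoxia and 24.5% in AXL KO normoxia but 4.27% and 4.05% in hypoxia, and the Pgf share of AXL WT hypoxia replicate 1 reaches 26.4%.

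Flt1 encodes VEGFR1, a high-affinity receptor for VEGF-A, VEGF-B and placental growth factor that also exists as a secreted form able to trap its ligands. It was at 0.934, 1.10 and 0.925 CPM in AXL WT normoxia and at 2.14, 3.75 and 3.66 CPM in AXL WT hypoxia. In the absence of AXL it was at 29.3, 32.5 and 38.4 CPM in normoxia and at 27.0, 30.8 and 27.8 CPM in hypoxia. The lowest AXL KO library was above the highest AXL WT library in both oxygen levels. Flt1 was higher in AXL KO cells by 5.08 ± 0.23 on the log2 scale in normoxia (edgeR adjusted p = 5.91e-09) and by 3.16 ± 0.21 in hypoxia (edgeR adjusted p = 1.51e-07). Hypoxia raised Flt1 in AXL WT cells by 1.69 ± 0.21 (edgeR adjusted p = 4.06e-05), while in AXL KO cells the groups overlapped and the difference was -0.23 ± 0.19 (edgeR adjusted p = 0.316). That fall of Flt1 in AXL KO cells was called in 2 of 22 alternatives at about the same size (-0.22 in both). The interaction was -1.92 ± 0.28 (edgeR adjusted p = 0.000545) and was called in all 21 alternatives, from -2.13 without AXL WT hypoxia replicate 1 to -1.36 with that replicate as the only AXL WT hypoxia library (adjusted p at most 0.00427). The 100 bases around the single HIF core of the Flt1 window, 184 bases before the start, are shown with the core in capitals (minus strand, chr5:147726122-147726221, RefSeq, GRCm38.p6).

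Flt1: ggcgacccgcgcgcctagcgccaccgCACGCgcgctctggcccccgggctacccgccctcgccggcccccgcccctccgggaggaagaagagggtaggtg

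Nrp1, a co-receptor for VEGF-A and for class 3 semaphorins, responded to hypoxia in opposite directions in the 2 genotypes. It was at 8.25, 9.12 and 8.89 CPM in AXL WT normoxia and at 8.06, 22.5 and 27.8 CPM in AXL WT hypoxia. The AXL KO libraries were at 68.3, 69.3 and 83.0 CPM in normoxia and at 34.0, 39.8 and 37.6 CPM in hypoxia. All AXL KO libraries were above all AXL WT libraries, and AXL WT hypoxia replicate 1 was no higher than the normoxic libraries. The genotype difference of Nrp1 was 3.07 ± 0.34 on the log2 scale in normoxia (edgeR adjusted p = 1.01e-05) and 0.93 ± 0.32 in hypoxia (edgeR adjusted p = 0.0229). Hypoxia raised Nrp1 by 1.15 ± 0.32 in AXL WT cells (edgeR adjusted p = 0.0088) and changed it by -0.98 ± 0.32 in AXL KO cells (edgeR adjusted p = 0.0186), and the interaction was -2.14 ± 0.45 (edgeR adjusted p = 0.00498). With replicate 1 as the only AXL WT hypoxia library the Nrp1 response of AXL WT cells was -0.11 and the interaction -0.87, and without it they were 1.53 and -2.5. The interaction of Nrp1 was called in all 21 alternatives, with adjusted p of at most 0.0168. The fall in AXL KO cells was no longer called without AXL KO normoxia replicate 3 (-0.89), AXL KO hypoxia replicate 1 (-0.91) or AXL KO hypoxia replicate 3 (-0.99), with adjusted p of Nrp1 of up to 0.0673 over 22 alternatives. The hypoxic genotype difference of Nrp1 was 0.57 without AXL WT hypoxia replicate 1 and 2.20 with it alone. Its call was lost without AXL KO hypoxia replicate 2 (0.89), with library size alone (0.75) and among the 6 compared libraries (0.88), with adjusted p of up to 0.117.

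Nrp2, the neuropilin that binds VEGF-C, was the receptor of highest level per kilobase in every group. It was at 399, 372 and 437 CPM in AXL WT normoxia and at 332, 237 and 185 CPM in AXL WT hypoxia, and the hypoxic libraries were all lower. Nrp2 in AXL KO libraries was at 361, 351 and 351 CPM in normoxia and at 308, 333 and 332 CPM in hypoxia. The fall of Nrp2 in AXL WT cells was -0.68 ± 0.17 on the log2 scale (edgeR adjusted p = 0.00396) and ran from -0.98 to -0.26 over 22 alternatives, with the Nrp2 call lost among the 6 compared libraries (-0.61, edgeR adjusted p = 0.0502). It was -0.26 with replicate 1 as the only AXL WT hypoxia library. In AXL KO cells Nrp2 differed by -0.13 ± 0.16 (edgeR adjusted p = 0.524), and the interaction was 0.55 ± 0.23 (edgeR adjusted p = 0.0992). The genotypes differed in Nrp2 by -0.18 ± 0.16 in normoxia and 0.37 ± 0.16 in hypoxia, neither called (edgeR adjusted p = 0.359 and 0.0712). Without AXL WT hypoxia replicate 1 the hypoxic difference of Nrp2 was 0.63 (edgeR adjusted p = 0.000154) and the interaction 0.81 (edgeR adjusted p = 0.000465), both called. Calls of Nrp2 were gained in 3 of 22 alternatives for the hypoxic difference, in 4 of 22 for the normoxic one and in 3 of 21 for the interaction, and the highest adjusted p were 0.726, 0.758 and 0.394.

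**Figure D3:**
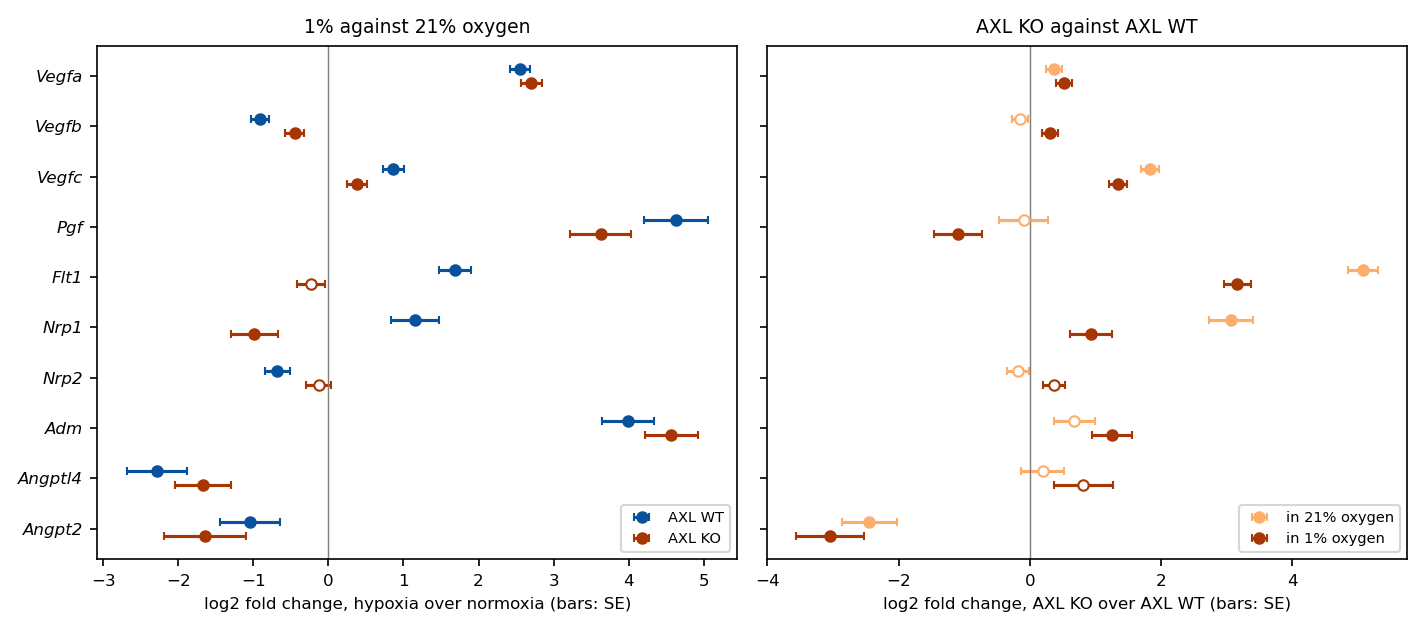
Log2 fold change of each of the 10 genes with its standard error, for hypoxia over normoxia in each genotype (left) and for AXL KO over AXL WT at each oxygen level (right). Filled points passed the edgeR threshold and open points did not. Flt1 and Nrp1 carry the largest genotype differences in normoxia, 5.08 and 3.07, and are the 2 members called in the interaction with all 12 libraries.

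Kdr, the receptor through which VEGF-A mainly signals, was near 0 in AXL WT cells (14 counts over 3 normoxia libraries and 5 over 3 hypoxia libraries). In AXL KO cells it was at 3.69 ± 0.633 CPM (SD, n = 3) in normoxia and 16.5 ± 0.99 CPM in hypoxia. In hypoxia the log2 fold change of Kdr between genotypes was 8.72 ± 0.40 (edgeR adjusted p = 6.72e-09), a size that rests on the few AXL WT counts and moved to 9.36 without AXL WT hypoxia replicate 3. Of the other defining endothelial markers, Tie1 had no count in any library. With counting error alone, 0 counts set a 95% upper limit of about 3 on the expected count per library. Cdh5, the endothelial cadherin, had 37 counts over the normoxic and 53 over the hypoxic AXL WT libraries, and AXL KO libraries had 0 counts of it in normoxia and 2 in hypoxia. In AXL WT hypoxia, where Flt1 also rose, the endothelial transcription factor gene Erg was at 3.31 ± 1.22 CPM (453 counts, against 17 in AXL WT normoxia and 1 and 0 over the AXL KO groups) and the adhesion molecule gene Esam at 1.25 ± 0.924 CPM. Of 8 endothelial markers tested, 5 were higher in AXL WT hypoxia than in normoxia and none lower, against 29.2% of all genes higher. In AXL KO hypoxia 4 were higher, against 27.3% of all genes. Between genotypes, 2 were higher and 4 lower in AXL KO cells in hypoxia, against 29.9% and 33.0% of all genes. In normoxia 1 was higher and 2 lower in AXL KO cells, against 29.7% and 30.0%. The median log2 fold changes between genotypes were -0.98 in hypoxia and -1.16 in normoxia, with -0.041 and -0.03 over all genes. The part of these markers in the Flt1 and Angpt2 results was not tested. The 12 endothelial markers summed to 0.93 to 1.41 CPM in AXL WT normoxia, 3.47 to 8.79 CPM in AXL WT hypoxia, 3.45 to 5.03 CPM in AXL KO normoxia and 16.7 to 18.7 CPM in AXL KO hypoxia, with Kdr making up most of the AXL KO sums. Vegfd, another ligand of VEGFR3, was at 3.95 ± 0.409 CPM in AXL WT normoxia, 52.2 ± 35.1 CPM in AXL WT hypoxia, 3.93 ± 0.851 CPM in AXL KO normoxia and 13.1 ± 0.933 CPM in AXL KO hypoxia, and it is named here after its values were seen.

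Of the 16 listed VEGF receptors, other ligands and neuropilin partners, 15 were tested. In hypoxia 10 were higher and 3 lower in AXL KO cells, with a median log2 fold change of 1.55, and in normoxia 7 were higher and 1 lower. Of all genes tested, 29.9% were higher and 33.0% lower in hypoxia, and 29.7% and 30.0% in normoxia. Sema3e, a semaphorin that binds plexin D1, was higher by 4.05 ± 0.22 in AXL KO normoxia (edgeR adjusted p = 2.39e-08), at 56.3 ± 6.73 CPM against 3.39 ± 0.973 CPM. The partners also moved with oxygen, 4 higher and 4 lower in AXL WT cells and 7 higher and 5 lower in AXL KO cells. Of all genes tested, 29.2% were higher and 30.7% lower in AXL WT cells, and 27.3% and 30.6% in AXL KO cells. Gipc1, a scaffold protein that binds the tail of neuropilin-1, fell by 2.07 on the log2 scale in AXL WT hypoxia (SE 0.19, edgeR adjusted p = 3.81e-06), and Sema3c, a neuropilin ligand, rose by 1.94 ± 0.15 in AXL KO hypoxia (edgeR adjusted p = 1.48e-06). The interaction was called for 7 of these 15 genes, against 28.8% of all genes. Plxna2, a plexin that pairs with neuropilins, had the smallest p among those of at least 5 CPM (-1.20 ± 0.22, edgeR adjusted p = 0.00212).

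Adm encodes adrenomedullin, a vasodilator peptide that also acts on blood and lymphatic endothelium. It was at 19.1, 18.9 and 21.5 CPM in AXL WT normoxia and at 517, 194 and 236 CPM in AXL WT hypoxia. AXL KO libraries stood at 22.7, 33.5 and 39.0 CPM in normoxia and at 823, 703 and 731 CPM in hypoxia. Each AXL KO group was above the matching AXL WT group without overlap, and as for Pgf the highest AXL WT hypoxia library was replicate 1. Hypoxia raised Adm by 3.99 ± 0.34 on the log2 scale in AXL WT cells (edgeR adjusted p = 2.16e-06) and by 4.57 ± 0.35 in AXL KO cells (edgeR adjusted p = 1.35e-06), and the difference of 0.57 ± 0.43 was not called (edgeR adjusted p = 0.349). Without AXL WT hypoxia replicate 1 that interaction of Adm was 1.13 and called (edgeR adjusted p = 0.00163). In hypoxia Adm was higher in AXL KO cells by 1.25 ± 0.31 (edgeR adjusted p = 0.00377). That difference was 1.82 without AXL WT hypoxia replicate 1 and 0.54 with it as the only AXL WT hypoxia library, where Adm was not called (edgeR adjusted p = 0.0668). In normoxia the difference of 0.68 ± 0.31 was not called (edgeR adjusted p = 0.0764). The normoxic difference of Adm was called in 6 of 22 alternatives, among them those without AXL WT hypoxia replicate 1 or 2 or AXL KO normoxia replicate 1, with values of 0.42 to 0.88 and adjusted p from 0.00188 to 0.246. The 120 bases before the Adm start hold 2 HIF cores in capitals, 90 and 54 bases before the start, and are shown beside the gene of largest hypoxic response in AXL KO cells among the members (plus strand, chr7:110627537-110627656, RefSeq, GRCm38.p6).

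Adm: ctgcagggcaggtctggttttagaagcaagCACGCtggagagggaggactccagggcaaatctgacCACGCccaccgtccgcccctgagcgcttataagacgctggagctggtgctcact

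Of the 8 listed genes of the adrenomedullin axis 6 were tested, with 1 higher and 1 lower in AXL KO cells in hypoxia and likewise in normoxia. Of all genes tested, 29.9% were higher and 33.0% lower in hypoxia, and 29.7% and 30.0% in normoxia. The one higher gene was Adm2, a related peptide, at 22.3 ± 2.58 CPM in AXL KO against 0.685 ± 0.0266 CPM in AXL WT normoxia (log2 fold change 5.02 ± 0.21, edgeR adjusted p = 3.87e-09) and at 38.9 ± 1.32 against 1.6 ± 0.48 CPM in hypoxia (4.60 ± 0.20, edgeR adjusted p = 5.81e-09). Calcrl, the receptor that adrenomedullin shares with calcitonin gene-related peptide, fell in AXL KO hypoxia (-2.05 ± 0.40, edgeR adjusted p = 0.000923). Calcb, a calcitonin gene-related peptide, rose in AXL WT hypoxia by 2.94 ± 0.55 (edgeR adjusted p = 0.000696), and the rise of Calcb was 1.70 without AXL WT hypoxia replicate 1. With oxygen, 2 of the 6 genes were higher and 1 lower in AXL WT cells, and 3 were higher and 1 lower in AXL KO cells, against 29.2% and 27.3% of all genes higher.

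Angptl4, a secreted inhibitor of lipoprotein lipase that is a known hypoxia target in other cells, was barely detected. Its counts were 27, 35 and 23 in normoxic and 5, 3 and 6 in hypoxic AXL WT libraries. The AXL KO counts were 46, 27 and 27 in normoxia and 7, 6 and 11 in hypoxia. In CPM that was at most 0.822 in any library, and every hypoxic library was below every normoxic one. Angptl4 fell in hypoxia by 2.28 on the log2 scale in AXL WT cells (SE 0.40, edgeR adjusted p = 0.000469) and by 1.67 in AXL KO cells (SE 0.37, edgeR adjusted p = 0.00238), a direction opposite to that of Vegfa and Adm. The AXL WT call of Angptl4 was lost with voom with a quality weight per group (-2.19, adjusted p = 0.0982), the highest adjusted p of its 21 alternatives. The genotypes differed in Angptl4 by 0.20 ± 0.33 in normoxia and 0.82 ± 0.45 in hypoxia, and the interaction was 0.62 ± 0.56, none called (edgeR adjusted p = 0.62, 0.133 and 0.44). The normoxic value of Angptl4 was -0.053 with library size alone.

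Among the 11 genes of the ANGPTL4 and lipoprotein lipase axis 6 were tested. Lpl, the lipase that ANGPTL4 inhibits, was at 8.27 ± 0.359 CPM in AXL KO normoxia and 14.5 ± 0.592 CPM in AXL KO hypoxia, against 0.0416 ± 0.00937 and 0.0989 ± 0.0839 CPM in AXL WT cells (7 and 13 counts over 3 libraries each). The log2 fold change of Lpl was 7.55 ± 0.39 in normoxia (edgeR adjusted p = 1.71e-08) and 7.20 ± 0.36 in hypoxia (edgeR adjusted p = 1.55e-08), or 8.01 without AXL WT hypoxia replicate 2. In all, 2 of the 6 genes were higher in AXL KO normoxia, against 29.7% of all genes. In AXL KO hypoxia 1 was higher and 1 lower, against 29.9% and 33.0% of all genes. With oxygen, 3 genes fell and 1 rose in AXL WT cells, 3 fell and 2 rose in AXL KO cells, and 1 was called in the interaction. Of all genes, 30.7% fell and 29.2% rose in AXL WT cells, 30.6% and 27.3% in AXL KO cells, and 28.8% were called in the interaction. Plin2, a lipid droplet coat protein, fell by 1.11 in AXL WT cells (SE 0.09, edgeR adjusted p = 1.39e-06), and Lmf1, which matures lipases, fell by 1.28 in AXL KO cells (SE 0.14, edgeR adjusted p = 1.61e-05). Plin2 was the gene called in the interaction (0.39 ± 0.13, edgeR adjusted p = 0.0373), a call lost in 14 of 21 alternatives, with values from 0.28 to 0.48 and adjusted p from 0.00916 to 0.179. Its call was lost without any 1 AXL WT normoxia or AXL KO hypoxia library, AXL WT hypoxia replicate 3, or AXL KO normoxia replicate 2 or 3.

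Angpt2, an angiopoietin that in most settings opposes Angpt1 at the endothelial receptor Tie2, was low in all groups and lowest in AXL KO hypoxia. Normoxic AXL WT libraries had 86, 93 and 88 counts, and hypoxic ones 17, 51 and 36. Its AXL KO counts were 12, 16 and 22 in normoxia and 3, 7 and 2 in hypoxia. In CPM the highest AXL KO library (0.381 in normoxia and 0.157 in hypoxia) was below the lowest AXL WT library of the same oxygen level (1.52 and 0.375). Angpt2 was lower in AXL KO cells on the log2 scale, by -2.44 ± 0.42 in normoxia (edgeR adjusted p = 0.000347) and -3.04 ± 0.51 in hypoxia (edgeR adjusted p = 0.000304), and both calls held in all 21 alternatives. The hypoxic difference of Angpt2 was -2.02 with replicate 1 as the only AXL WT hypoxia library and -3.67 without AXL KO hypoxia replicate 2. Hypoxia lowered Angpt2 by 1.05 in AXL WT cells (SE 0.39, edgeR adjusted p = 0.0378) and 1.65 in AXL KO cells (SE 0.54, edgeR adjusted p = 0.021). The first of these Angpt2 calls was lost in 9 of 21 alternatives, among them the omission of any AXL WT normoxia library, of AXL WT hypoxia replicate 1 (-0.72) or 3, of AXL KO normoxia replicate 2 or of AXL KO hypoxia replicate 1. The second was lost without AXL KO normoxia replicate 3 or AXL KO hypoxia replicate 1 or 3. Adjusted p of Angpt2 reached 0.117 in AXL WT cells and ran from 0.0017 to 0.0843 in AXL KO cells. The interaction was -0.60 ± 0.66 (edgeR adjusted p = 0.538). Angpt2 lies on the strand opposite to Mcph1, which had 14778 counts over all libraries, and the counting used strand.

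The Tie2 receptor gene Tek was not abundant enough to test, nor was Tie1, and 4 of the 7 genes of the angiopoietin axis were tested. In AXL KO cells 3 of the 4 were higher and 1 lower in normoxia, and 2 were higher and 1 lower in hypoxia. Of all genes tested, 29.7% were higher and 30.0% lower in normoxia, and 29.9% and 33.0% in hypoxia. Angpt1, the Tie2 agonist, was at 106 ± 12.5 CPM in AXL KO normoxia against 11.6 ± 0.928 CPM in AXL WT normoxia (log2 fold change 3.19 ± 0.30, edgeR adjusted p = 2.55e-06). In hypoxia Angpt1 was at 16.4 ± 1.49 against 5.55 ± 3.18 CPM (1.56 ± 0.29, edgeR adjusted p = 0.000631), and the difference was 2.26 with replicate 1 as the only AXL WT hypoxia library. All 4 genes fell in AXL WT hypoxia and 3 in AXL KO hypoxia, against 30.7% and 30.6% of all genes. The angiopoietin-like gene Angptl2 fell from 527 ± 30.0 CPM to 85.8 ± 38.9 CPM in AXL WT cells (-2.62 ± 0.26, edgeR adjusted p = 6.01e-06), and Angptl6 from 22.3 ± 7.64 to 1.93 ± 0.0584 CPM in AXL KO cells (-3.54 ± 0.29, edgeR adjusted p = 2.13e-06). The interaction was called for 3 of the 4 genes, led by Angptl2 (2.29 ± 0.35, edgeR adjusted p = 0.000672), against 28.8% of all genes.

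**Figure D4:**
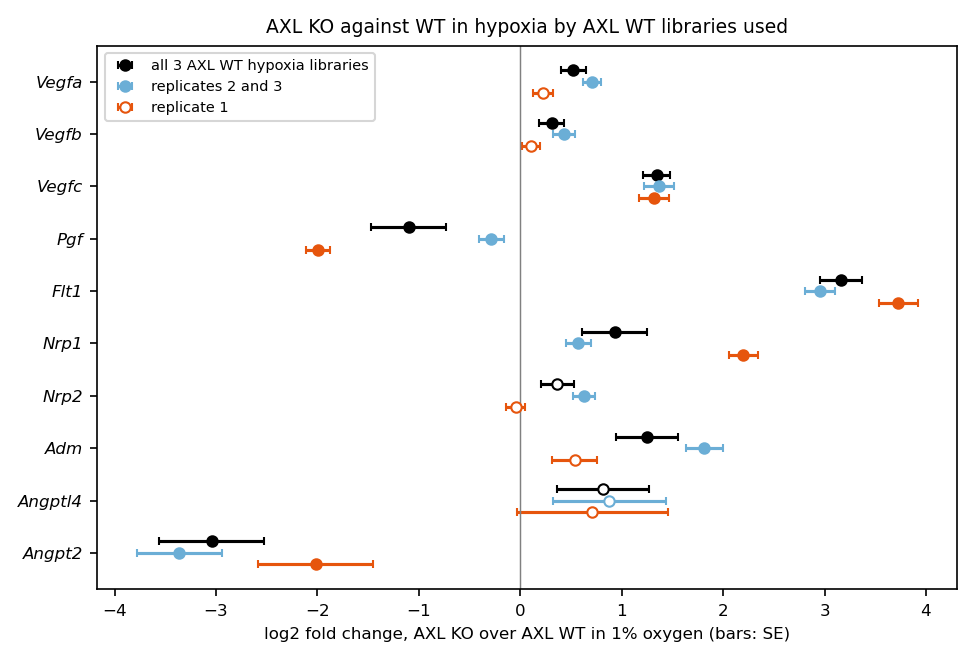
Log2 fold change of AXL KO over AXL WT in 1% oxygen with its standard error for each of the 10 genes, with all 3 AXL WT hypoxia libraries (black), with replicates 2 and 3 (blue) and with replicate 1 alone (orange); filled points passed the edgeR threshold. Vegfc varies little, while Pgf runs from -2.0 to -0.28, Nrp1 from 0.57 to 2.20 and Adm from 0.54 to 1.82. The orange errors and calls assume that replicate 1 varies like the other groups.

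Beyond these axes, the 18 other angiogenic growth factors moved in both directions. In AXL KO cells 7 were higher and 5 lower in hypoxia, and 7 were higher and 6 lower in normoxia, with medians of 0.07 and 0.034. Of all genes tested, 29.9% were higher and 33.0% lower in hypoxia, and 29.7% and 30.0% in normoxia. Pdgfd, a platelet-derived growth factor, was at 20.2 ± 2.82 against 2.71 ± 0.132 CPM in normoxia (2.89 ± 0.18, edgeR adjusted p = 9.25e-08) and at 27.8 ± 0.779 against 3.51 ± 0.887 CPM in hypoxia (2.98 ± 0.18, edgeR adjusted p = 9.14e-08). Efna1, an ephrin ligand, rose in hypoxia in both genotypes, by 1.77 ± 0.15 in AXL WT and 1.70 ± 0.15 in AXL KO cells (edgeR adjusted p = 1.59e-06 and 2.89e-06). With oxygen, 4 factors were higher and 2 lower in AXL WT cells, and 7 were higher and 3 lower in AXL KO cells. Of all genes tested, 29.2% were higher and 30.7% lower in AXL WT cells, and 27.3% and 30.6% in AXL KO cells. The interaction was called for 7 of the 18, against 28.8% of all genes. Edn1, the vasoconstrictor endothelin-1, had the smallest p (4.15 ± 0.70, edgeR adjusted p = 0.0013). Edn1 was at 0.636 ± 0.0714 CPM in AXL WT normoxia, 2.5 ± 1.93 CPM in AXL WT hypoxia, 0.116 ± 0.0521 CPM in AXL KO normoxia and 8.30 ± 0.827 CPM in AXL KO hypoxia, and its interaction ran from 3.24 to 5.0 as the AXL WT hypoxia libraries were replicate 1 alone or replicates 2 and 3.

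Of the 12 listed angiogenesis inhibitors 10 were tested. Against AXL WT cells, AXL KO cells had 7 higher and 2 lower in hypoxia (median 1.58), against 29.9% and 33.0% of all genes, and 6 higher and 3 lower in normoxia (median 1.42), against 29.7% and 30.0%. Timp3, a matrix-bound metalloproteinase inhibitor that also blocks VEGF-A from VEGFR2, was at 543 ± 76.7 against 0.274 ± 0.0603 CPM in normoxia and at 677 ± 13.4 against 1.67 ± 0.675 CPM in hypoxia. Its log2 fold change was 10.94 ± 0.32 in normoxia (edgeR adjusted p = 2.69e-10) and 8.66 ± 0.28 in hypoxia (edgeR adjusted p = 5.89e-10), or 9.40 with replicate 1 as the only AXL WT hypoxia library of the Timp3 comparison. With oxygen 3 inhibitors rose and 4 fell in AXL WT cells, and 2 rose and 3 fell in AXL KO cells. Of all genes tested, 29.2% rose and 30.7% fell in AXL WT cells, and 27.3% and 30.6% in AXL KO cells. Vash2, which despite its place in the list is mostly described as promoting vessel growth, fell in AXL WT hypoxia (-2.77 ± 0.22, edgeR adjusted p = 1.08e-06). Hhip, a hedgehog antagonist, fell in AXL KO hypoxia (-3.21 ± 0.29, edgeR adjusted p = 3.65e-06). The interaction was called for 4 of the 10 genes, with Vash2 at 1.98 ± 0.29 (edgeR adjusted p = 0.000547), against 28.8% of all genes.

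The HIF subunits and hypoxia reference genes, 12 listed and tested, give the oxygen response against which the members can be read. In AXL WT hypoxia 10 rose and 2 were not called (median 2.32), and in AXL KO hypoxia 11 rose and 1 fell (median 1.43). Of all genes tested, 29.2% rose and 30.7% fell in AXL WT hypoxia, and 27.3% and 30.6% in AXL KO hypoxia. Ankrd37, a HIF target, rose by 4.97 ± 0.16 in AXL WT and 3.42 ± 0.15 in AXL KO cells (edgeR adjusted p = 4.95e-09 and 4.12e-08), with an interaction of -1.55 ± 0.20 (edgeR adjusted p = 0.000198). All 12 genes were higher in AXL KO than in AXL WT cells in normoxia (median 1.71), and 6 were higher and 1 lower in hypoxia (median 0.47). Of all genes tested, 29.7% were higher in normoxia, and 29.9% were higher and 33.0% lower in hypoxia. Epas1, which encodes HIF-2 alpha, was at 66.3 ± 14.7 against 3.53 ± 0.394 CPM in normoxia (4.23 ± 0.18, edgeR adjusted p = 4.62e-09) and at 34.6 ± 0.855 against 2.99 ± 0.418 CPM in hypoxia (3.54 ± 0.18, edgeR adjusted p = 1.87e-08). The interaction was called for 10 of the 12, with 9 lower and 1 higher, against 28.8% of all genes (15.3% lower, 13.5% higher). Among the members, the hypoxia-raised Vegfa and Adm had no called interaction with all 12 libraries, though both did without AXL WT hypoxia replicate 1 (0.33 for Vegfa and 1.13 for Adm). In normoxia Vegfa was higher in AXL KO cells by 0.37 ± 0.13. The normoxic differences of Adm (0.68 ± 0.31) and Pgf (-0.094 ± 0.37) were not called. Without AXL WT hypoxia replicate 1 that of Adm was again 0.68 and was called (edgeR adjusted p = 0.00196).

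Per kilobase of gene model, the order of mean levels in AXL WT normoxia was Vegfa (64.3 CPM per kb), Vegfb (39.3), Nrp2 (34.0), Adm (12.2), Vegfc (6.29), Pgf (3.90), Nrp1 (0.894), Angpt2 (0.432), Angptl4 (0.155) and Flt1 (0.073), and no 2 neighbours overlapped between libraries. In AXL WT hypoxia Vegfa (378 CPM per kb), Adm (195) and Pgf (96.7) came first, in that order in each library. Over the group Adm overlapped with Vegfa and with Pgf, and Pgf lay above Nrp2 without overlap. Neighbours also overlapped for Nrp2 (21.2) and Vegfb (20.9) and for Flt1 (0.236) and Angpt2 (0.209). In AXL KO normoxia the leading levels were those of Vegfa (83.2 CPM per kb), Vegfb (35.5), Nrp2 (30.0), Vegfc (22.5) and Adm (19.6), and the last pair overlapped. In AXL KO hypoxia Vegfa (543 CPM per kb) and Adm (464) led without overlap, followed by Pgf (45.1), Vegfc (29.2), Nrp2 (27.4) and Vegfb (25.9). Here Nrp2 overlapped with both Vegfc and Vegfb. Flt1 was last of 10 in AXL WT normoxia and eighth in both AXL KO groups, at 2.47 and 2.11 CPM per kb, where it lay above Angptl4 and Angpt2.

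Across the 12 libraries the members fell into a few shared patterns, given as Pearson r of log2 CPM over libraries that share genotype and oxygen and so are a description only. Adm followed Vegfa (r = 0.99) and Pgf did so less closely (r = 0.94), while Vegfb ran against Vegfa (r = -0.84) and with Angptl4 (r = 0.92). Flt1 followed Vegfc (r = 0.96) and Nrp1 (r = 0.94), and Angpt2 ran against Vegfc (r = -0.90) and Flt1 (r = -0.85). Among 13427 protein-coding genes tested, those most like Vegfa were Napg, Mapk7 and Mxi1, each with r of at least 0.99. Those most like Adm were Rnf152, Col12a1 and Per1, and those most like Flt1 were Col6a2, Hspa2 and Os9, also at r of at least 0.99. For Vegfb they were Nipsnap1, Cox15 and Cenpv, for Vegfc Itm2b, Cables1 and Msi2, and for Pgf Rassf5, Inppl1 and Tmem38b. Nrp1 was most like Ticam1, Slc35a5 and Zfp667, Nrp2 like Nr2f1, Col18a1 and Emp1 (r = 0.95 for the first), and Angpt2 like Creg1, Adgra1 and Haus3.

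RefSeq promoter windows, from 250 bases before to 50 after a start, were found for 8 of the 10 members (10 windows), all but Angptl4 and Angpt2. The HIF core, ACGTG or GCGTG on either strand, was in 7 of these 10 windows, 1 in each of 7 members, and 43.8% of all 32851 windows hold it. Its copies lay 90 and 54 bases before the start in Adm, 124 in Pgf, 184 in Flt1, 166 in Nrp1, 207 and 160 in Nrp2, and 237 and 81 in Vegfb. Genes that rose and genes that fell in hypoxia are both among these. The core was not in the window of Vegfc. The AP-1 motif TGANTCA, which 7.81% of all windows hold, and the PPAR direct repeat (the nuclear receptor element with 1 base as spacer), which 0.0396% hold, were in no member's window.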

How the data were processed

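RNA was measured in 12 libraries, grouped by sample title. The deposited values are counts per gene. Per the submitters' processing notes, the authors used FastQC 0.11.5, STAR 2.5.1b, featureCounts 1.4.6 and DESeq2 1.12.3 with GRCm38. Per the file headers, featureCounts 1.6.0 counted fragments on the reverse strand against Ensembl release 93, with both ends mapped and no chimeric pairs, and the deposited gene length column is in bases.

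The counts went into edgeR 4.0.16 (R 4.3.3) after filterByExpr, which left 16767 of 54232 genes. TMM scaled the libraries, and a robust quasi-likelihood model with 1 mean per group was fitted to all 12 (8 residual degrees of freedom). Every adjusted p is Benjamini-Hochberg over all genes tested. The ± of a log2 fold change is its standard error and any other ± the standard deviation of 3 libraries, CPM are TMM-scaled, and the interaction is the response of AXL KO minus that of AXL WT. Symbols came from GENCODE M21 by gene ID (54165 of 54232). Replicates of no group agreed within sampling noise, and none was merged. The test was checked on simulated counts that gave a gene the same spread in all groups. That check does not cover the wider spread of AXL WT hypoxia.

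The members and gene lists were chosen with earlier results of these data known. All members and Axl are named in the text. From each list, the gene of smallest adjusted p per comparison with at least 5 CPM in the higher group is named, a stricter choice than the fixed rule of up to 3. The 3 most similar protein-coding genes per member were found on log2 CPM (prior count 2). Marker lists covered mammary epithelium, endothelium, leukocytes, fibroblasts, and pericytes and smooth muscle. Alternatives were scaling by RLE factors or by library size alone, no low-count filter, a filter of 5 CPM in 3 libraries, DESeq2 1.42.0, limma-voom (limma 3.58.1), voom with a weight per group, the replicate number as a block, only the 6 libraries compared, a minimum fold of 2, AXL WT hypoxia replicates 2 and 3 left out, and each library left out in turn. At this depth 3 counts are 0.051 to 0.0662 CPM, and intervals and floors cover counting error only. The genes most like Angptl4 are not reported here.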

Additional observations from a re-analysis of the deposited data

Results flagged for a closer look

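A difference between the hypoxia responses of AXL KO and AXL WT cells, tested as an interaction in edgeR, was called for 2 members, and it is given here for these and for the called gene of smallest adjusted p, among genes of at least 5 CPM, in each of 6 related lists. Flt1 had an interaction of -1.92 (adjusted p = 0.000545) and Nrp1 of -2.14 (adjusted p = 0.00498), where Flt1 rose in AXL WT cells and was not called in AXL KO cells, and Nrp1 rose in AXL WT and fell in AXL KO cells. With replicate 1 as the only AXL WT hypoxia library the AXL WT response of Nrp1 was -0.11 and not called. Plxna2 was at -1.20 (adjusted p = 0.00212) and Ankrd37 at -1.55 (adjusted p = 0.000198). The others were positive: Angptl2 at 2.29 (adjusted p = 0.000672), Plin2 at 0.39 (adjusted p = 0.0373), Edn1 at 4.15 (adjusted p = 0.0013) and Vash2 at 1.98 (adjusted p = 0.000547). The Plin2 call was lost in 14 of 21 alternatives. In the same test 28.8% of all genes were called. The 3 libraries of AXL WT hypoxia, which enter each of these values, vary more among themselves than those of any other group, and the part of that spread in the interactions was not tested.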

How the results depend on the processing

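Depth limits Angptl4 and Angpt2, which have as few as 3 and 2 counts in a library. Scaling by library size alone moved the all-gene median of log2 fold changes to -0.21, -0.29, -0.32, -0.23 and 0.06 (AXL KO against WT in hypoxia and normoxia, hypoxia in AXL WT and AXL KO, interaction), and the split of genes called higher and lower to 4170 and 6481, 3717 and 6667, 3473 and 7001, 3516 and 6251, and 2650 and 2162, against 5016 and 5541, 4976 and 5033, 4895 and 5140, 4582 and 5137, and 2264 and 2566 with TMM. Members are read relative to those shifts.

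The count of members called in AXL KO against WT in hypoxia, 8, was 5 with a minimum fold of 2, 4 among the 6 compared libraries, and 5 with AXL WT hypoxia replicates 2 and 3 both left out. Leaving out 1 library gave 5 to 9, with 5 without AXL KO hypoxia replicate 2. In normoxia the count of 5 was 8 with voom with a weight per group, 8 among the 6 libraries and 8 with those replicates left out, and 4 to 6 with 1 library left out. For hypoxia in AXL KO cells it was 5 with a minimum fold of 2 and 5 to 8 with 1 library left out (5 without AXL KO hypoxia replicate 3), against 8. For hypoxia in AXL WT cells it was 9 to 10 with 1 library left out. In the interaction the count of 2 was 4 with DESeq2, 4 with replicates 2 and 3 left out, and 2 to 6 with 1 library left out (6 without AXL WT hypoxia replicate 1). All genes called in the interaction numbered 3582 to 8417 with 1 library left out, the highest without AXL WT hypoxia replicate 1. The cause was not tested.

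With AXL WT hypoxia replicates 2 and 3 both left out the sign turned for Nrp2 in AXL KO against WT in hypoxia (-0.042), for Nrp1 in AXL WT hypoxia (-0.11), and in the interaction for Vegfa (-0.15), Adm (-0.15) and Angpt2 (0.42), of which only the Nrp1 value was called in the first place. In AXL KO against WT in normoxia Angptl4 was at -0.053 with library size alone and ran from -0.12 (without AXL KO normoxia replicate 1) to 0.45 with 1 library left out, and Pgf ran from -0.25 to 0.026 (without AXL KO normoxia replicate 2). Where 1 AXL WT hypoxia library is left, it is assumed to vary like the other groups.

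Ligand shares moved where counts were not divided by gene length. Vegfa then held 75.4%, 83.5%, 74.5% and 90.5% (AXL WT normoxia, AXL WT hypoxia, AXL KO normoxia, AXL KO hypoxia), Vegfb 17.3%, 1.76%, 11.9% and 1.63%, and Vegfc 4.22%, 1.49%, 11.4% and 2.80%, while Pgf held 3.10% in AXL WT normoxia and 5.11% in AXL KO hypoxia.

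The replicate number was also fitted as a replicate block. Over 18 pairs of same-numbered libraries the deviations from group means correlated at -0.06 to 0.14, with 2 pairs over 0.1 and 5 where the own number correlated best. Whether same-numbered libraries share a culture or a day cannot be told from these correlations. With the block 7, 5, 10, 8 and 2 members were called in the 5 comparisons.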
